A study of Mus musculus with 24 samples.

Results

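p53 and its target genes were followed in the oligodendrocyte (OL) translatome and in total RNA of spinal cord segments of mice after contusive spinal cord injury (SCI). The set held 10 genes, taken by symbol from the table of raw counts: Trp53, which encodes p53, and the p53 targets Cdkn1a, Mdm2, Ccng1, Trp53inp1, Eda2r, Phlda3, Sesn1, Zmat3 and Plk2. All 10 were among the 17167 genes tested, of 21965 genes listed. Polyadenylated RNA was sequenced from 24 libraries in 8 groups of 3, total RNA and OL libraries from naïve cord and from injured cord 2, 10 or 42 days after surgery, written dpi 2, dpi 10 and dpi 42. All mice, naïve ones included, were labelled female, carried a Cre transgene with the rpl22HA allele and had received tamoxifen. The Cre, activated by tamoxifen, turned on an HA-tagged ribosomal protein, Rpl22, in mature OLs. Per the labels the injured mice had a 50 kdyn contusion at thoracic level T9 at 10 to 12 weeks of age. The study's methods state a younger age at injury, and the labels give no age at collection for naïve mice. Per the study's methods, the tissue was a segment of cord that spanned the injury site, with damaged, spared and uninjured parts, and not the whole cord. Each replicate pooled the segments of 2 mice, and 1 lysate gave both kinds of RNA: a portion of the input is called total RNA, and polysomes pulled down through the HA tag are called OL. This Cre also acts in Schwann cells, so OL libraries can hold their RNA. The study also reported apparent contamination of the OL libraries with RNA of other cells, microglia and macrophages among them. Naïve and dpi 42 tissue were collected on the same day, so dpi 2 and dpi 10 tissue differed from naïve tissue also in age and in time since tamoxifen, which cannot be told apart from injury in those comparisons.

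p53 is a transcription factor that is held at a low level by the ubiquitin ligase Mdm2 and is stabilised when DNA damage, oxidative stress or loss of trophic support activates upstream kinases. It then binds paired decamer motifs and switches on genes for cell cycle arrest, cell death, metabolic control and its own feedback, Mdm2 among them. Because the protein is controlled mostly after translation, the level of Trp53 mRNA is no measure of p53 activity, and its target genes are the usual readout.

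The gene starts themselves are shown first, since the targets share a regulator. RefSeq promoter windows (GRCm38.p6, 250 bases before to 50 after a start) matched 8 of the 10 genes and gave 10 windows, with none for Trp53inp1 and Zmat3. The 10-base p53 response element decamer, which reads the same on both strands, was searched in every window by its consensus. It lay in 5 of the 10 windows, one each for Trp53, Cdkn1a, Mdm2, Ccng1 and Sesn1, and in 8.36% of all 32851 promoter windows. Matches before the start were GGACTTGCCC at -75 in Trp53, GAACTTGCCT at -186 in Mdm2, GGGCAAGCCT at -185 in Ccng1 and AAGCTTGTTT at -173 in one Sesn1 window, with positions counted from the start to the first base of the match. A pair of decamers with at most 13 bases between them, the layout that p53 binds as a tetramer, was found in one Cdkn1a window alone among these windows (GGACTAGCTT at -73 and GAACATGTCT at -51) and in 0.0731% of all windows. Cdkn1a had another window, at a later start, which held no decamer. Only exact matches to the consensus were counted and marked, so near matches stand in small letters. A match is only a description of the letters, and sites outside the window were not searched. The 250 bases before the start are printed for Cdkn1a (chr17:29090729-29090978, plus strand), which holds the pair, for Mdm2 (chr10:117710759-117711008, minus strand), which holds a single decamer, and for Phlda3 (chr1:135765835-135766084, plus strand), which holds none, each 5′ to 3′ with decamers in capitals.
Cdkn1a: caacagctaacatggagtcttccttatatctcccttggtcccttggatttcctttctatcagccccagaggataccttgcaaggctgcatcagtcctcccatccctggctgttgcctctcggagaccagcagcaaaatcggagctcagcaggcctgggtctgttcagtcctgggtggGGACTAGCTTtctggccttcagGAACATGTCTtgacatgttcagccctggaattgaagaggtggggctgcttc
Mdm2: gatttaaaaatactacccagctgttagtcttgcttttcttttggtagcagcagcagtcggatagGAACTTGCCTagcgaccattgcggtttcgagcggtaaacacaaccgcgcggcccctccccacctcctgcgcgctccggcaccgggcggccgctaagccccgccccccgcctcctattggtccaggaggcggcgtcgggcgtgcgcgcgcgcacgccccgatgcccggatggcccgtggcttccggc
Phlda3: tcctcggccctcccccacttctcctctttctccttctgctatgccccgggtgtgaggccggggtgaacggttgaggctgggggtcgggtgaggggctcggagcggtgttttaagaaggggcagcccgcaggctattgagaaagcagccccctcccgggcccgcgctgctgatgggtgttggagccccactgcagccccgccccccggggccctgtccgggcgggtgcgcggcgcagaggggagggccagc

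Libraries held 25840127 to 32987841 counts, so that 3 counts stood for 0.0840 to 0.127 CPM (counts scaled to library size, with trimmed mean of M-values, TMM, factors). Among 7 OL markers, all 7 were OL enriched in naïve cord, with a median of 2.62 on the log2 scale. Of 10 microglia and macrophage markers, 9, 10 and 9 rose in total RNA on dpi 2, 10 and 42, and in OL libraries 8, 9 and 8 rose and 1 (P2ry12) fell on dpi 2. Their sum went in total RNA from 134 to 166 CPM in naïve cord to 1075 to 1350 CPM on dpi 2, 3086 to 4250 CPM on dpi 10 and 1772 to 2708 CPM on dpi 42. In OL libraries the sum went from 14.2 to 18.1 CPM to 71.0 to 88.6, 211 to 237 and 135 to 224 CPM. Summed proliferation markers (6 genes) in total RNA went from 38 to 41.8 CPM in naïve cord to 240 to 253 CPM on dpi 2, and all 5 neuronal markers fell in total RNA on dpi 2 and dpi 10. In OL libraries 4, 4 and 3 of the proliferation markers rose, while their sum stayed at 98.3 to 134 CPM. Of 4 endothelial markers 3, 2 and 3 rose in OL and 3, 1 and 0 in total RNA, and their OL sum went from 4.29 to 4.97 CPM to 9.37 to 17.3 CPM on dpi 2. The 3 Schwann cell markers had no called change, with OL sums of 6.18, 8.21 and 150.5 CPM in naïve cord, 47.5 to 122 CPM on dpi 2, 98.7 to 139 CPM on dpi 10 and 170 to 172 CPM on dpi 42. The part of these markers' cells in the changes below was not tested. In a bulk library, fewer cells of a type and less RNA per cell cannot be told apart. Some libraries stood apart. The sum of 5 astrocyte markers split the OL libraries: it was 11336 CPM in naïve replicate 3, 9435 in dpi 2 replicate 3, 7305 in dpi 10 replicate 2, and 14217 and 12366 in dpi 42 replicates 1 and 2, and 2058 to 4071 CPM in the other 7. Naïve OL replicate 3 thus had the highest Schwann cell and astrocyte sums of its group, and its Schwann cell sum lay within the range of the injured OL libraries. Both libraries of dpi 2 pool 2 held 2604 and 2414 counts of 4 Y-linked genes, although the mice were labelled female, and the other 22 libraries held 0 to 13. For 2 libraries of dpi 42 the labels named different kinds of RNA. They were used as total RNA replicate 2 and OL replicate 1, with OL marker sums of 16819 and 73242 CPM that lay among those of the other total RNA and OL libraries. Values without one or more of these libraries are given beside results below.

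**Figure D1:**
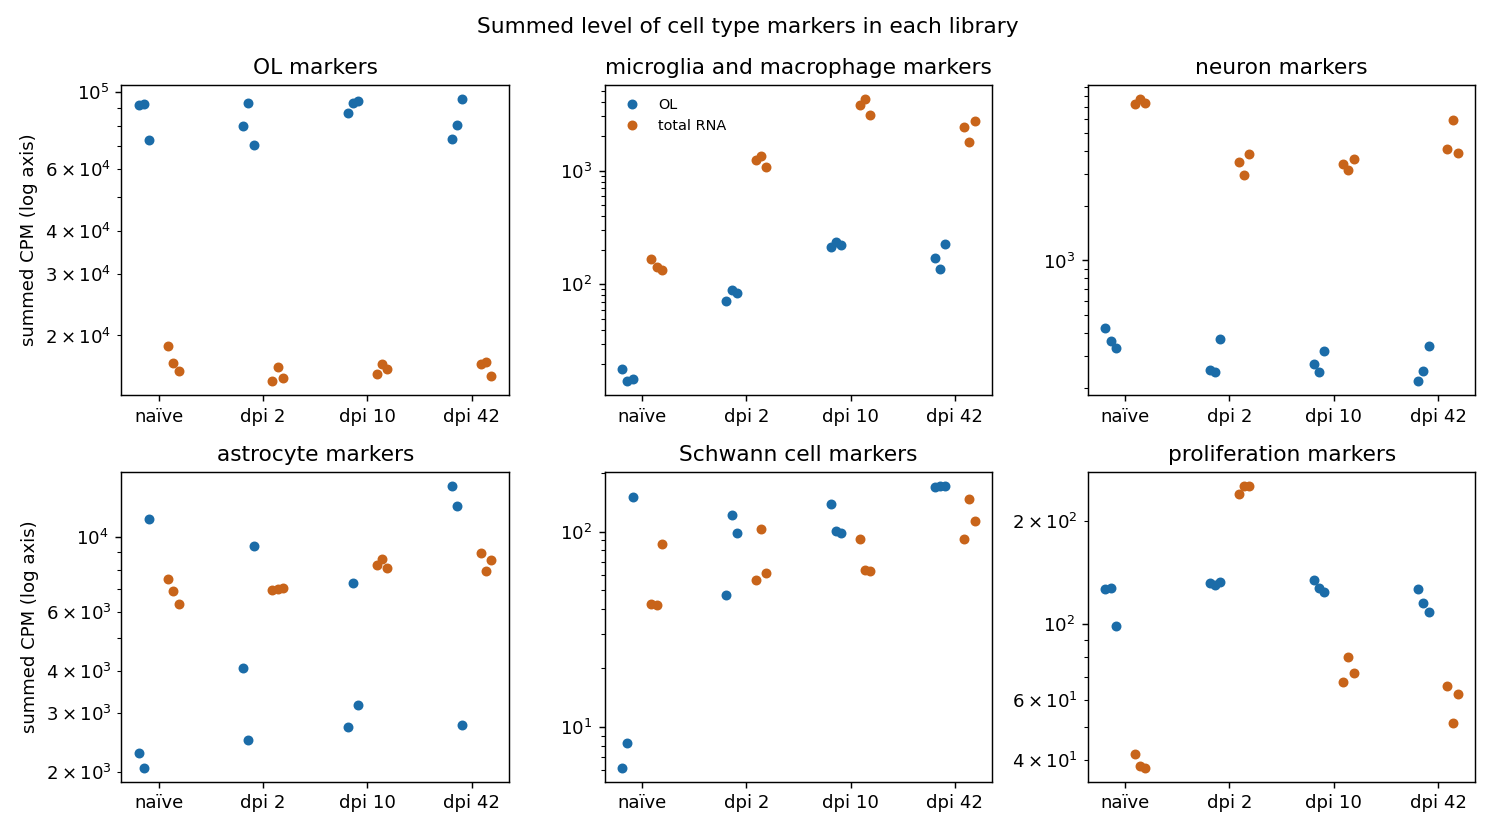
Summed CPM of cell type markers on a log axis in each of the 24 libraries, OL in blue and total RNA in orange, by group. The microglia and macrophage sum was higher after injury in both kinds of RNA (total RNA 134 to 166 CPM in naïve cord, 3086 to 4250 CPM on dpi 10), and Schwann cell markers were at 6.18, 8.21 and 150.5 CPM in the 3 naïve OL libraries and at 47.5 to 172 CPM in the injured ones.

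Per kilobase of exon, the naïve OL translatome was led by Phlda3, with 83.5 ± 5.07 CPM per kb (SD, n = 3), followed by Cdkn1a with 40.7 ± 8.05 and Ccng1 with 21.4 ± 1.97. Mdm2 (11.6 ± 1.88) and Sesn1 (9.57 ± 3.94) did not differ beyond their spread, and below them came Zmat3 (5.61 ± 0.276), Trp53 (3.21 ± 0.122) and Trp53inp1 (2.37 ± 0.653). Plk2 (0.762 ± 0.087) and Eda2r (0.463 ± 0.212) were lowest. In naïve total RNA Phlda3 again led with 50.2 ± 2.77 CPM per kb, but Cdkn1a stood at 7.68 ± 0.952, next to Mdm2 at 7.87 ± 0.926, and below Ccng1 (15 ± 2.56), Zmat3 (11.7 ± 0.251) and Sesn1 (9.12 ± 0.951). Eda2r was lowest there too, at 0.15 ± 0.0629 CPM per kb. The order of Phlda3, Cdkn1a, Ccng1, Mdm2 and Sesn1 at the top of the OL levels was also the order on dpi 2, 10 and 42.

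**Figure D2:**
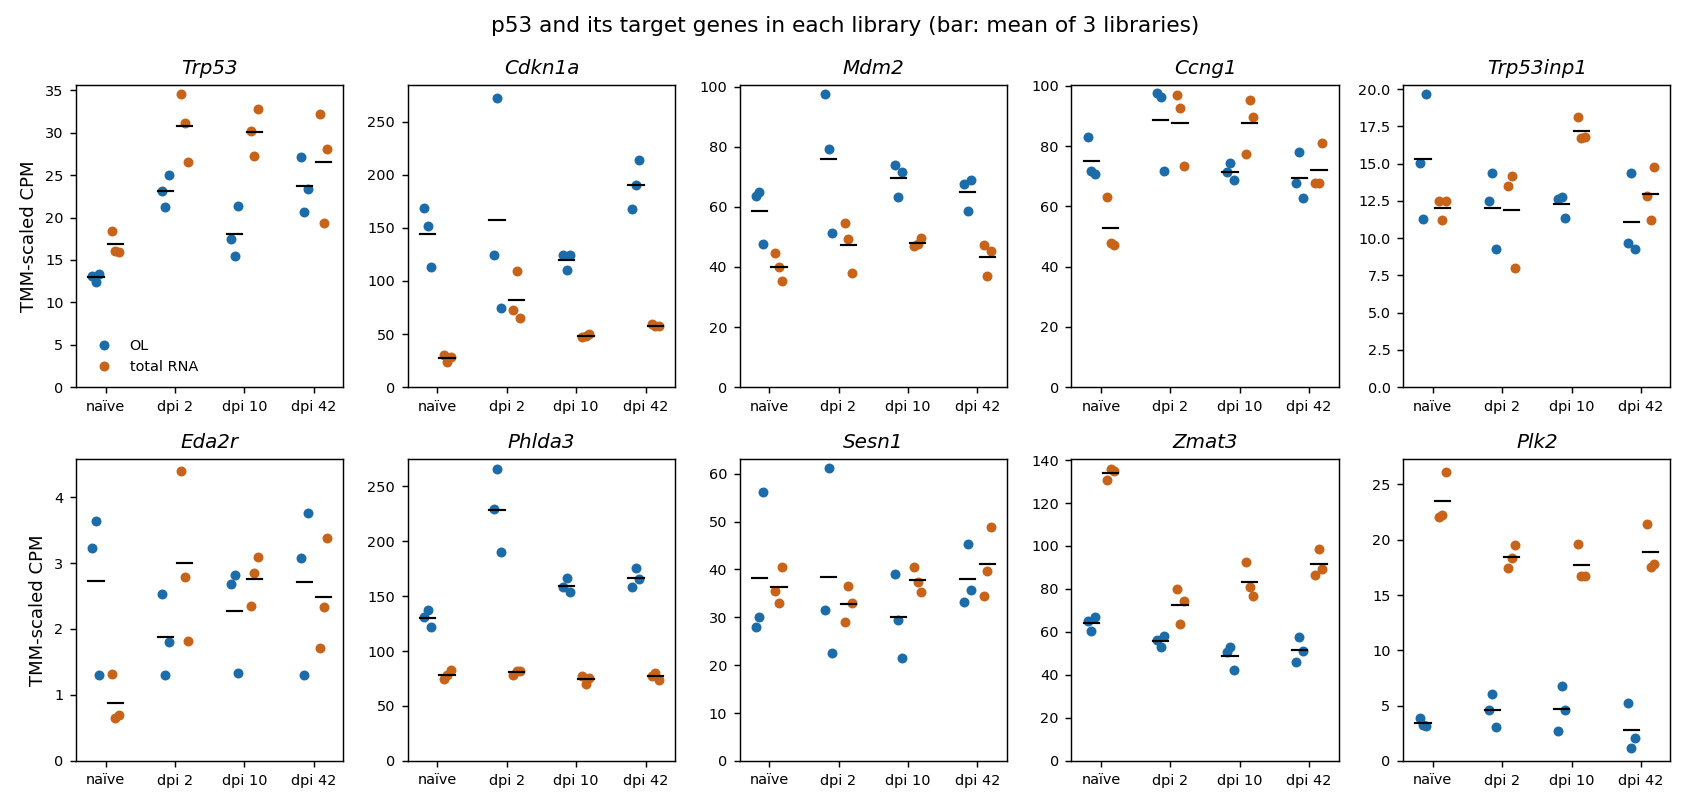
TMM-scaled CPM of each gene in the 24 libraries, OL in blue and total RNA in orange, with a bar at the mean of 3 libraries. Phlda3 lay at 191 to 265 CPM in dpi 2 OL libraries and at 122 to 138 CPM in naïve ones, while Cdkn1a OL values on dpi 2 ran from 74.9 to 272 CPM.

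After injury the target genes did not move as a block. In OL, Trp53 and Phlda3 rose on dpi 2, Phlda3 alone rose on dpi 10 while Zmat3 fell, and on dpi 42 Trp53 and Phlda3 rose while Zmat3 fell (edgeR quasi-likelihood test, adjusted p under 0.05, as for every call here). That is 2 of 10 up and 0 down on dpi 2, where 18.4% of all tested genes were called up and 20% down; no member was down at an unadjusted p under 0.05 or by DESeq2. On dpi 10 it is 1 up and 1 down, against 9.62% and 8.59% of all genes, and on dpi 42 it is 2 up and 1 down, against 16.2% and 16.9%. These OL counts depend on the scaling. With an offset for gene length and GC content per library they were 3 up (Trp53, Mdm2 and Zmat3) on dpi 2, 0 up and 0 down on dpi 10, and 1 up (Trp53) and 1 down (Phlda3) on dpi 42. With library sizes alone they were 4, 2 and 2 up and 0 down at each time. The median OL change over the 10 genes was 0.18, -0.17 and -0.0045 on the log2 scale, where the median of all genes was 0 at each time. In total RNA, Trp53, Cdkn1a, Ccng1 and Eda2r rose and Zmat3 fell at all 3 times. These 4 up and 1 down of 10 compare with 16.4% up and 20.8% down of all genes on dpi 2, with 13.9% up and 18.2% down on dpi 10, and with 10.4% up and 12.1% down on dpi 42. With single libraries left out, the number up in total RNA ran from 3 to 4 on dpi 2, from 2 to 3 on dpi 10 and from 1 to 4 on dpi 42. The median total RNA change of the 10 genes was 0.14, 0.39 and 0.14, beside -0.10, -0.10 and -0.083 over all genes. The 3 time points share the naïve libraries, so they are not independent of each other. None of the 10 genes had an OL change past 1 on the log2 scale that was called, so none met a filter that asks for such a change together with OL enrichment or differential OL enrichment, which 363 genes met upward on dpi 2.

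**Figure D3:**
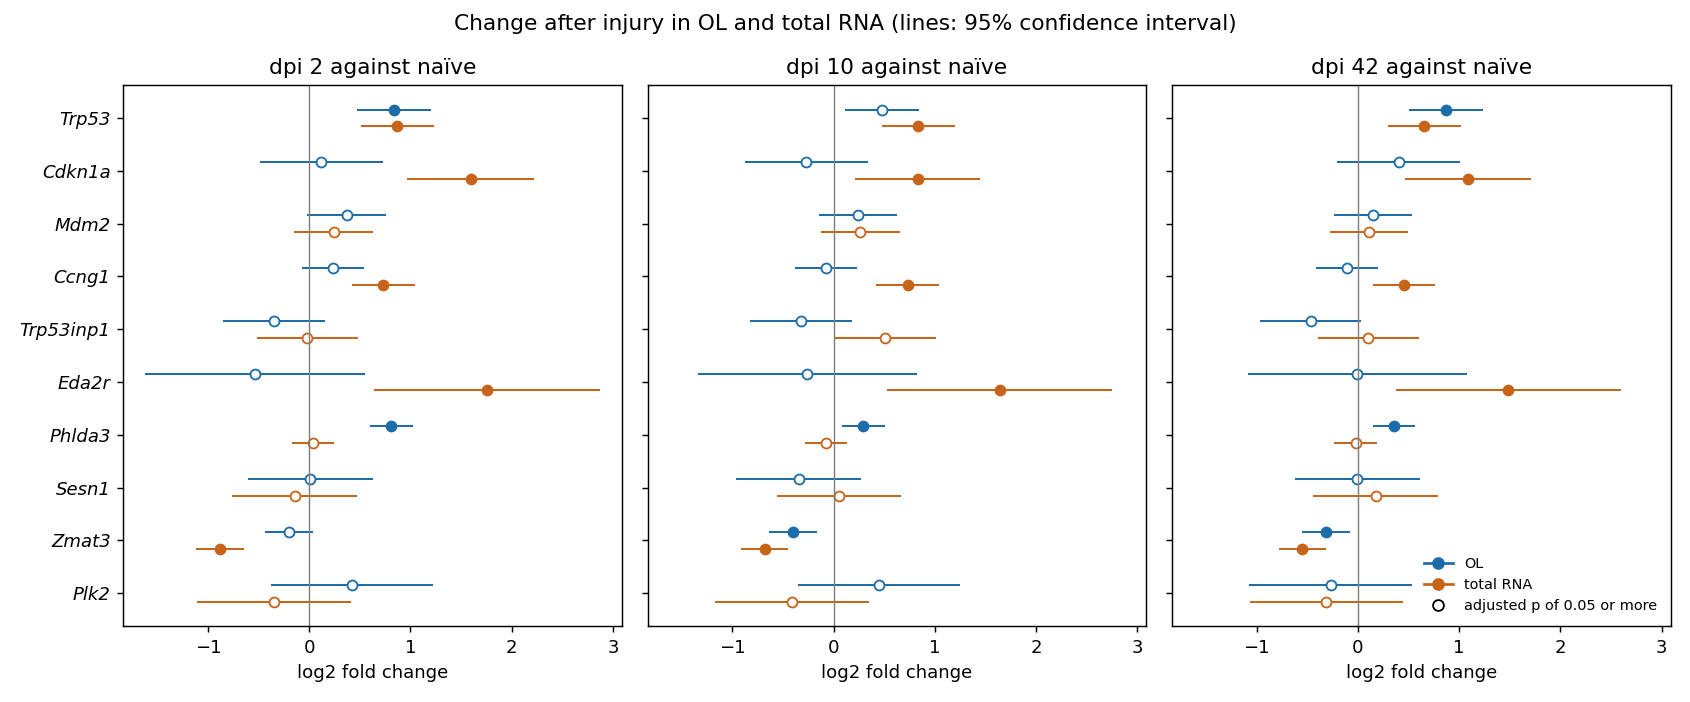
Log2 fold change of each gene against naïve cord on dpi 2, 10 and 42, in OL (blue) and total RNA (orange), with 95% confidence intervals and filled points where the adjusted p was under 0.05. Cdkn1a, Ccng1 and Eda2r have filled points in total RNA only (Cdkn1a 1.59, 0.83 and 1.09), and Phlda3 in OL only (0.81, 0.30 and 0.36).

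Trp53 (chr11:69580359-69591873, plus strand, GRCm38 with GENCODE M21, as for all genes here), the gene of p53 itself, was measured in naïve OL at 13.2, 12.4 and 13.4 CPM. OL libraries of dpi 2 gave 23.1, 21.3 and 25.1 CPM, those of dpi 10 gave 17.5, 15.4 and 21.3, and those of dpi 42 gave 27.2, 20.7 and 23.4. Every injured OL library thus lay above every naïve one. The change was 0.83 ± 0.17 (log2, SE; 1.78-fold; adjusted p = 0.000527) on dpi 2 and 0.87 ± 0.17 (1.83-fold; adjusted p = 0.000496) on dpi 42, and on dpi 10 it was 0.48 ± 0.17 and missed the threshold (adjusted p = 0.0579). In total RNA, Trp53 went from 18.5, 16.1 and 16 CPM in naïve cord to 34.5, 31.2 and 26.6 on dpi 2, to 30.2, 27.3 and 32.9 on dpi 10, with 32.2, 19.4 and 28.1 on dpi 42, again with no overlap. The rises were 0.87 ± 0.17 (adjusted p = 0.000328), 0.84 ± 0.17 (adjusted p = 0.000603) and 0.66 ± 0.17 (adjusted p = 0.00727). The OL change minus the total RNA change was -0.04 ± 0.24, -0.36 ± 0.24 and 0.21 ± 0.24, called at no time. The Trp53 rise is thus not shown to differ between OL and total RNA. Without the 2 conflicting libraries, the dpi 42 changes were 0.76 in OL (adjusted p = 0.00132) and 0.84 in total RNA (adjusted p = 0.000574), and the dpi 10 OL call was then made (adjusted p = 0.0226). The dpi 42 total RNA call ended without its replicate 1 (adjusted p = 0.0646), where the change was 0.50.

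The feedback arm of the pathway is Mdm2 (chr10:117688875-117710758, minus strand), which marks p53 for degradation, and Ccng1 (chr11:40748552-40755311, minus strand), cyclin G1, which acts on Mdm2 through a phosphatase. Mdm2 in OL ran at 63.5, 65.0 and 47.7 CPM in naïve cord and at 97.4, 79.2 and 51.2 on dpi 2, 73.9, 63.2 and 71.4 on dpi 10, with 67.7, 58.5 and 68.9 on dpi 42. The groups overlapped at each time, and no Mdm2 change was called in either kind of RNA: the OL changes were 0.37 ± 0.18 (adjusted p = 0.117), 0.24 ± 0.18 and 0.15 ± 0.18. The dpi 2 OL value reached 0.53 (adjusted p = 0.0144) without replicate 3 of dpi 2 OL, the library of its group with the high astrocyte sum and with the lowest Mdm2, Cdkn1a, Ccng1 and Phlda3 levels, and the part of that sum was not tested. Over every single library left out, the Mdm2 OL change on dpi 2 ran from 0.07 to 0.53 (adjusted p up to 0.832). Ccng1 in total RNA rose from 63.1, 47.8 and 47.2 CPM to 96.9, 92.5 and 73.4 on dpi 2, 77.3, 95.5 and 89.8 on dpi 10, with 67.9, 67.7 and 80.9 on dpi 42, each injured library above each naïve one. These are changes of 0.73 ± 0.14 (1.66-fold; adjusted p = 0.000327), 0.73 ± 0.14 (adjusted p = 0.000431) and 0.45 ± 0.14 (1.37-fold; adjusted p = 0.0254). The dpi 42 call ended without naïve total RNA replicate 2 or 3 or dpi 42 total RNA replicate 3 (0.36 at the lowest, adjusted p up to 0.129). Ccng1 in OL stayed between 62.7 and 97.8 CPM in all 12 libraries, with overlapping groups and changes of 0.24 ± 0.14, -0.07 ± 0.14 and -0.11 ± 0.14, none called.

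Cdkn1a (chr17:29090976-29100727, plus strand) encodes p21, the cyclin-dependent kinase inhibitor that is the classic arrest target of p53. In total RNA its libraries gave 30.3, 23.6 and 28.0 CPM in naïve cord, 72.4, 110 and 64.7 on dpi 2, 47.2, 48.1 and 50.2 on dpi 10, with 59.1, 57.8 and 57.1 on dpi 42. All injured libraries were above all naïve ones. Total Cdkn1a rose by 1.59 ± 0.30 (3.02-fold; adjusted p = 0.000195) on dpi 2, by 0.83 ± 0.29 (1.78-fold; adjusted p = 0.0330) on dpi 10 and by 1.09 ± 0.29 (2.13-fold; adjusted p = 0.00974) on dpi 42. The dpi 10 call ended when any 1 of its 6 libraries was left out (adjusted p = 0.0521 to 0.119), at 0.74 to 0.91, and the dpi 42 call ended without naïve total RNA replicate 2 (adjusted p = 0.0502). In OL, Cdkn1a was already high before injury, at 169, 152 and 113 CPM, and stood at 124, 272 and 74.9 on dpi 2, 124, 111 and 125 on dpi 10, with 168, 190 and 214 on dpi 42. The dpi 2 libraries lay on both sides of the naïve range, and no OL change was called: 0.12 ± 0.29 (95% interval -0.47 to 0.72), -0.27 ± 0.29 (-0.87 to 0.33) and 0.40 ± 0.29 (-0.19 to 1.00). The highest of the dpi 2 values, 272 CPM, came from pool 2, the pool with Y-linked counts. Without both libraries of that pool, the OL change on dpi 2 was -0.54 and was called down (adjusted p = 0.0261), and the total RNA rise was 1.33 (adjusted p = 1.29e-05); the part of the pool in either was not tested.

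Plk2 (chr13:110395046-110400844, plus strand), a polo-like kinase with roles in centriole duplication and at synapses, was mostly a total RNA gene here. It gave 22.1, 22.2 and 26.1 CPM in naïve total RNA and 3.87, 3.26 and 3.14 CPM in naïve OL. No change after injury was called: total RNA changes were -0.35 ± 0.36, -0.41 ± 0.36 and -0.31 ± 0.36, although every injured total RNA library (16.7 to 21.5 CPM) lay below the naïve ones. The OL libraries of dpi 42 were spread, at 5.24, 1.12 and 2.11 CPM, from only 150, 30 and 54 counts. The first of these is a library with conflicting labels, and without both such libraries the OL change on dpi 42 went from -0.27 to -1.08 and was called (adjusted p = 0.0288).

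Eda2r (chrX:97333840-97377216, minus strand), a receptor of the tumour necrosis factor family, was the rarest gene, with 20 to 157 counts per library. Its naïve total RNA libraries gave 1.31, 0.645 and 0.697 CPM, and those after injury gave 4.40, 2.78 and 1.81 on dpi 2, 2.34, 2.85 and 3.10 on dpi 10, with 1.72, 2.34 and 3.39 on dpi 42. No injured library overlapped the naïve ones, and the changes were 1.76 ± 0.53 (3.38-fold; adjusted p = 0.0122), 1.64 ± 0.53 (adjusted p = 0.0213) and 1.48 ± 0.53 (2.80-fold; adjusted p = 0.0482). These calls were fragile. Leaving out naïve total RNA replicate 2 or 3 ended each of them, as did dpi 2 replicate 1 on dpi 2 (1.37 at the lowest, adjusted p up to 0.0716), dpi 10 replicate 2 or 3 on dpi 10 (1.46 at the lowest, adjusted p up to 0.0919) and any dpi 42 library on dpi 42 (1.19 at the lowest, adjusted p up to 0.184). Without the 2 conflicting libraries the dpi 42 value was 1.52 (adjusted p = 0.0728). In OL, Eda2r went from 3.24, 3.64 and 1.30 CPM in naïve cord to 2.53, 1.30 and 1.80 on dpi 2, 2.68, 2.82 and 1.33 on dpi 10, with 3.08, 1.31 and 3.76 on dpi 42. The groups overlapped throughout and there was no call (-0.54 ± 0.52, -0.26 ± 0.51 and -0.01 ± 0.51).

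Phlda3 (chr1:135766119-135769136, plus strand) encodes a small pleckstrin homology domain protein that competes with Akt for membrane lipids and so restrains a survival pathway. Its naïve OL libraries gave 131, 138 and 122 CPM. On dpi 2 they gave 229, 265 and 191, on dpi 10 159, 166 and 154 and on dpi 42 159, 175 and 166, and each injured library exceeded each naïve one. Total RNA held 70.2 to 82.9 CPM in all 12 libraries, with overlapping groups and changes of 0.04 ± 0.10, -0.08 ± 0.10 and -0.02 ± 0.10 (95% interval on dpi 2, -0.16 to 0.24). The OL rise was 0.81 ± 0.10 (1.76-fold; adjusted p = 9.33e-07) on dpi 2, 0.30 ± 0.10 (1.23-fold; adjusted p = 0.0345) on dpi 10 and 0.36 ± 0.10 (1.28-fold; adjusted p = 0.00629) on dpi 42. The dpi 2 rise was 0.69 (adjusted p = 1.06e-05) without pool 2, and the dpi 42 rise was 0.39 (adjusted p = 0.0109) without the conflicting libraries. The dpi 10 call ended when any 1 of its 6 libraries was left out (adjusted p = 0.0516 to 0.117), and the dpi 42 call without naïve OL replicate 3 or dpi 42 OL replicate 2 (0.25 at the lowest, adjusted p up to 0.0719). Phlda3 is short and GC-rich, with 1559 exon bases and 62.6% GC, above 98.5% of the tested genes. When each library's trend with gene length and GC content was taken out, the OL change became 0.04 (adjusted p = 0.839), -0.21 (adjusted p = 0.221) and -0.45 (adjusted p = 0.00482) at the 3 times. The OL rise of Phlda3 was thus called at no time with this offset.

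Trp53inp1 (chr4:11156431-11174379, plus strand), a stress-induced nuclear protein that aids p53 and autophagy, had no called change with all libraries. Its total RNA libraries on dpi 10, at 18.1, 16.7 and 16.8 CPM, lay above the naïve ones at 12.5, 11.2 and 12.5 CPM, a change of 0.51 ± 0.24 (adjusted p = 0.105). In OL it gave 15, 11.3 and 19.7 CPM in naïve cord and 9.27 to 14.4 CPM in the injured libraries, and the changes of -0.35 ± 0.24, -0.32 ± 0.24 and -0.47 ± 0.24 were not called. The last of them was called without naïve OL replicate 2 (-0.71, adjusted p = 0.0388) or dpi 42 OL replicate 2 (-0.75, adjusted p = 0.0325). Sesn1 (chr10:41809935-41908424, plus strand), a sestrin that restrains mTORC1 under stress, overlapped between all groups. Its OL change was 0.01 ± 0.29 on dpi 2 and -0.35 ± 0.29 on dpi 10, and no change was called in either kind of RNA. Single libraries were high within 2 groups: 56.2 CPM in naïve OL replicate 3 against 28.0 and 30.1, and 61.2 CPM in dpi 2 OL replicate 2 against 31.6 and 22.5. These are the naïve OL library with the highest Schwann cell and astrocyte sums of its group and the dpi 2 library with Y-linked counts, and the lowest of the dpi 2 values, 22.5, came from the dpi 2 library with the high astrocyte sum. The part of these sums was not tested. On dpi 10 the OL values were spread evenly, at 39.0, 29.5 and 21.5 CPM. Without naïve OL replicate 3 the Sesn1 OL change was 0.33 (adjusted p = 0.398) on dpi 2 and 0.04 (adjusted p = 1) on dpi 10, and without dpi 2 OL replicate 2 it was -0.55 (adjusted p = 0.123) on dpi 2.

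Zmat3 (chr3:32334792-32366014, minus strand), a zinc finger protein that binds RNA and takes part in splicing and mRNA decay, was the one target that fell. Its total RNA libraries gave 131, 136 and 135 CPM in naïve cord, 80.1, 63.7 and 74.4 on dpi 2, 92.7, 81.0 and 76.6 on dpi 10, with 86.7, 98.4 and 89.2 on dpi 42. None of the injured libraries reached the naïve ones. The total RNA change was -0.88 ± 0.11 (0.544-fold; adjusted p = 1.9e-06), -0.68 ± 0.11 (adjusted p = 4.92e-05) and -0.55 ± 0.11 (0.683-fold; adjusted p = 0.000807). It was -0.79 (adjusted p = 3.87e-05) on dpi 2 without pool 2 and -0.61 (adjusted p = 0.000809) on dpi 42 without the conflicting libraries. All 5 neuronal markers fell in the same libraries on dpi 2 and dpi 10, from 7274 to 7707 CPM in sum in naïve cord to 2934 to 3846 CPM on dpi 2. On dpi 42, 4 of the 5 fell in total RNA. In OL 3, 4 and 3 of the 5 fell on dpi 2, 10 and 42, while 1, 1 and 0 rose. The part of these markers in the Zmat3 falls was not tested. OL libraries gave 65.0, 60.6 and 66.7 CPM in naïve cord, 56.1, 53.1 and 58.1 on dpi 2, 50.8, 52.8 and 42.3 on dpi 10, with 46.0, 57.7 and 51.3 on dpi 42, all injured libraries below all naïve ones. The OL change was -0.20 ± 0.11 (adjusted p = 0.153) on dpi 2, -0.40 ± 0.11 (0.759-fold; adjusted p = 0.0129) on dpi 10 and -0.31 ± 0.11 (0.805-fold; adjusted p = 0.0304) on dpi 42. These small OL calls were lost in several settings: without dpi 10 OL replicate 3 (-0.32, adjusted p = 0.0790), without dpi 42 OL replicate 1 (-0.28, adjusted p = 0.0748) and without both conflicting libraries (-0.23, adjusted p = 0.148). With 11435 exon bases Zmat3 is long (median of tested genes 4123.5). With the length and GC trend removed its OL change was 0.29 (adjusted p = 0.0366) on dpi 2, -0.07 (adjusted p = 0.724) on dpi 10 and 0.17 (adjusted p = 0.249) on dpi 42.

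**Figure D4:**
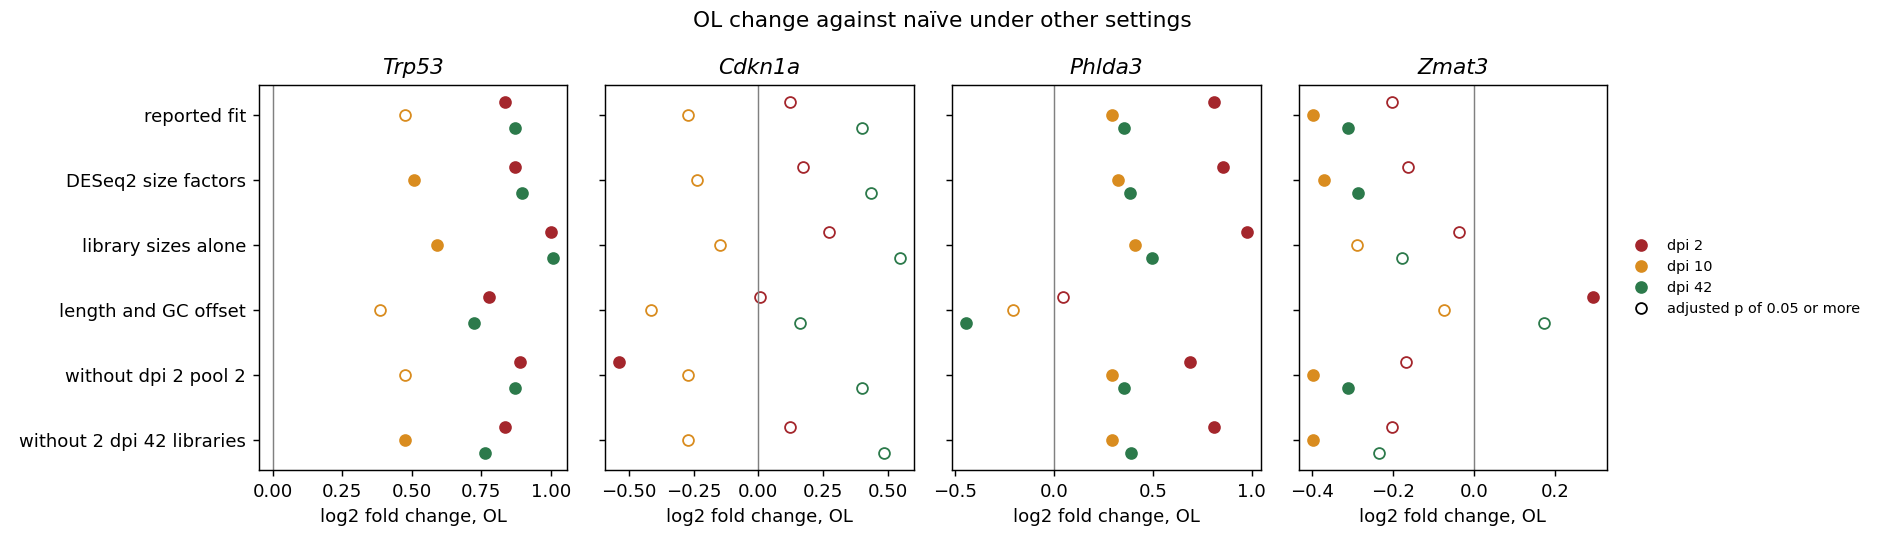
Log2 fold change in OL against naïve cord for 4 genes under 6 settings, dpi 2 in red, dpi 10 in orange and dpi 42 in green, filled where the adjusted p was under 0.05. Trp53 stays above 0 in each setting shown, Cdkn1a on dpi 2 goes from 0.12 to -0.54 without pool 2 of dpi 2, and Phlda3 on dpi 42 goes from 0.36 to -0.45 with the length and GC offset.

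Whether OL and total RNA changed differently was tested as an interaction, the OL change minus the total RNA change, which is called differential OL enrichment. On dpi 2 Phlda3 and Zmat3 were relatively higher in OL, and Cdkn1a and Eda2r were relatively lower. That is 2 up and 2 down of 10, where 8.06% of all genes were called up and 6.03% down. Phlda3 differed by 0.77 ± 0.13 (adjusted p = 0.00058) and Zmat3 by 0.68 ± 0.15 (adjusted p = 0.00439), with the Phlda3 rise called in OL only and the Zmat3 fall on dpi 2 in total RNA only. Phlda3 differed by 0.66 (adjusted p = 0.0032) without pool 2, and by 0.30 (adjusted p = 0.234) with the length and GC offset. Zmat3 lost its call without naïve OL replicate 1 or 2 or dpi 2 OL replicate 1 or 3 (0.43 at the lowest, adjusted p up to 0.105). Cdkn1a differed by -1.47 ± 0.41 (adjusted p = 0.0184), and by -1.87 (adjusted p = 0.000152) without pool 2. Its call ended without naïve total RNA replicate 2 or dpi 2 total RNA replicate 2 (adjusted p up to 0.0635), and the difference was -2.33 without dpi 2 OL replicate 2. With only the groups compared in the fit, neither Cdkn1a (adjusted p = 0.103) nor Eda2r (adjusted p = 0.0846) was called. Eda2r differed by -2.29 ± 0.74 (adjusted p = 0.0418), and by -2.19 (adjusted p = 0.0825) with the tissue pool as a block. That call was also lost without pool 2 (-2.14, adjusted p = 0.112), without the conflicting dpi 42 libraries (adjusted p = 0.0502) and without any 1 of 7 of its libraries, those being all but naïve total RNA replicate 1, dpi 2 total RNA replicate 3, naïve OL replicate 3 and dpi 2 OL replicates 1 and 3. Without naïve OL replicate 3 it was -2.83 (adjusted p = 0.0116).

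On dpi 10 only Ccng1 was called, at -0.80 ± 0.20 (adjusted p = 0.0164), with 0 members up and 1 down against 4.57% and 3.09% of all genes. At an unadjusted p under 0.05, 1 member was up (Phlda3) and 4 were down: Ccng1, Cdkn1a, Trp53inp1 (-0.83 ± 0.33) and Eda2r (-1.90 ± 0.74). DESeq2 called 0 up. The Ccng1 call ended without naïve total RNA replicate 2 or 3 or dpi 10 total RNA replicate 2 (-0.73 at the smallest, adjusted p up to 0.0557). With the tissue pool as a block, Cdkn1a was called as well, at -1.09 (adjusted p = 0.0172), beside -1.10 ± 0.41 (adjusted p = 0.113) without it. It was also called without dpi 2 pool 2 (adjusted p = 0.00455), with only the groups compared (adjusted p = 0.0016) and without naïve OL replicate 3 (-1.37, adjusted p = 0.0496). On dpi 42 no member was called in either direction, where 4.37% of all genes were up and 3.47% down by edgeR's quasi-likelihood test. At an unadjusted p under 0.05 there were 1 up (Phlda3, 0.38 ± 0.13) and 1 down (Ccng1, -0.57 ± 0.20), and DESeq2 called 0. With the block, Ccng1 was called on dpi 42 (-0.57, adjusted p = 0.0356) and on dpi 2 (-0.51, adjusted p = 0.0407). It was also called at each of these times when any 1 of 5 libraries was left out, naïve OL replicates 2 and 3 among them at both times. Over every single library left out, the difference ran from -0.81 to -0.48 on dpi 42 and from -0.80 to -0.42 on dpi 2.

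OL enrichment, the OL level over the total RNA level of the same group, placed Cdkn1a, Mdm2 and Phlda3 on the OL side and Zmat3 and Plk2 on the total RNA side in every group. In naïve cord 5 of 10 members were OL enriched (Cdkn1a, Mdm2, Ccng1, Eda2r and Phlda3) and 2 depleted, against 24.9% and 30.5% of all genes. On dpi 2 there were 3 enriched and 3 depleted (24.8% and 28.8%), on dpi 10 likewise 3 and 3 (25.2% and 28.8%), Trp53 being the third depleted gene at both times, and on dpi 42 there were 3 and 2 (24.9% and 28.9%). With library sizes alone, 2, 1, 2 and 2 members were enriched and 3, 5, 6 and 5 depleted in the 4 groups, and with single libraries left out the naïve count of enriched members ran from 3 to 6. With only the groups compared in the fit, Cdkn1a (adjusted p = 0.113) and Mdm2 (adjusted p = 0.0516) were not called on dpi 2. Cdkn1a was the most enriched member in naïve cord, at 2.41 ± 0.30 (5.30-fold; adjusted p = 6.07e-07), and was enriched by 0.93 ± 0.29 (1.91-fold; adjusted p = 0.00965) on dpi 2, 1.30 ± 0.29 (adjusted p = 0.000703) on dpi 10 and 1.72 ± 0.29 (3.29-fold; adjusted p = 4.07e-05) on dpi 42. Its dpi 2 enrichment was 0.23 (adjusted p = 0.387) without dpi 2 OL replicate 2, was also lost without dpi 2 total RNA replicate 3, and was 0.54 (adjusted p = 0.0297) without both libraries of pool 2. Phlda3 was enriched by 0.73 ± 0.10 in naïve cord (adjusted p = 1.04e-06) and by 1.5 ± 0.10, 1.1 ± 0.10 and 1.11 ± 0.10 after injury.

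Mdm2 enrichment was even across the groups, at 0.55 ± 0.18, 0.68 ± 0.18, 0.53 ± 0.18 and 0.59 ± 0.18, each called in the fit of all groups. Its call ended without naïve total RNA replicate 3 in naïve cord (adjusted p = 0.0631), without dpi 2 OL replicate 1 on dpi 2 (0.40, adjusted p = 0.0781) and without the conflicting libraries on dpi 42 (0.46, adjusted p = 0.101). Plk2 was depleted by -2.78 ± 0.39 in naïve cord (adjusted p = 2.91e-06) and by -2.01 ± 0.38, -1.92 ± 0.38 and -2.74 ± 0.39 after injury, and by -3.60 on dpi 42 without the conflicting libraries. Zmat3 was depleted by -1.06 ± 0.11, -0.38 ± 0.11, -0.78 ± 0.11 and -0.82 ± 0.11. Trp53 lay at -0.41 ± 0.17 (adjusted p = 0.0459) on dpi 2 and -0.74 ± 0.17 (adjusted p = 0.000924) on dpi 10. The first of these was -0.40 (adjusted p = 0.0869) with the tissue pool as a block and -0.34 (adjusted p = 0.2) without pool 2. Without the conflicting libraries, Trp53 was called depleted on dpi 42 as well (-0.45, adjusted p = 0.0353). Ccng1 was enriched in naïve cord only (0.51 ± 0.14, adjusted p = 0.00421), with -0.29 ± 0.14 on dpi 10, called depleted with the block (adjusted p = 0.0373). Eda2r was enriched in naïve cord (1.62 ± 0.53, adjusted p = 0.0133), where OL replicate 3, at 1.30 CPM, lay just under the highest total RNA library at 1.31 CPM and the other OL libraries lay above all of them, and not without naïve total RNA replicate 2 or 3 (adjusted p up to 0.0588). Scaling by library size alone lowered the enrichment of all genes by a median of 0.50 to 0.57, and on that scale Mdm2 was called in none of the 4 groups.

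**Figure D5:**
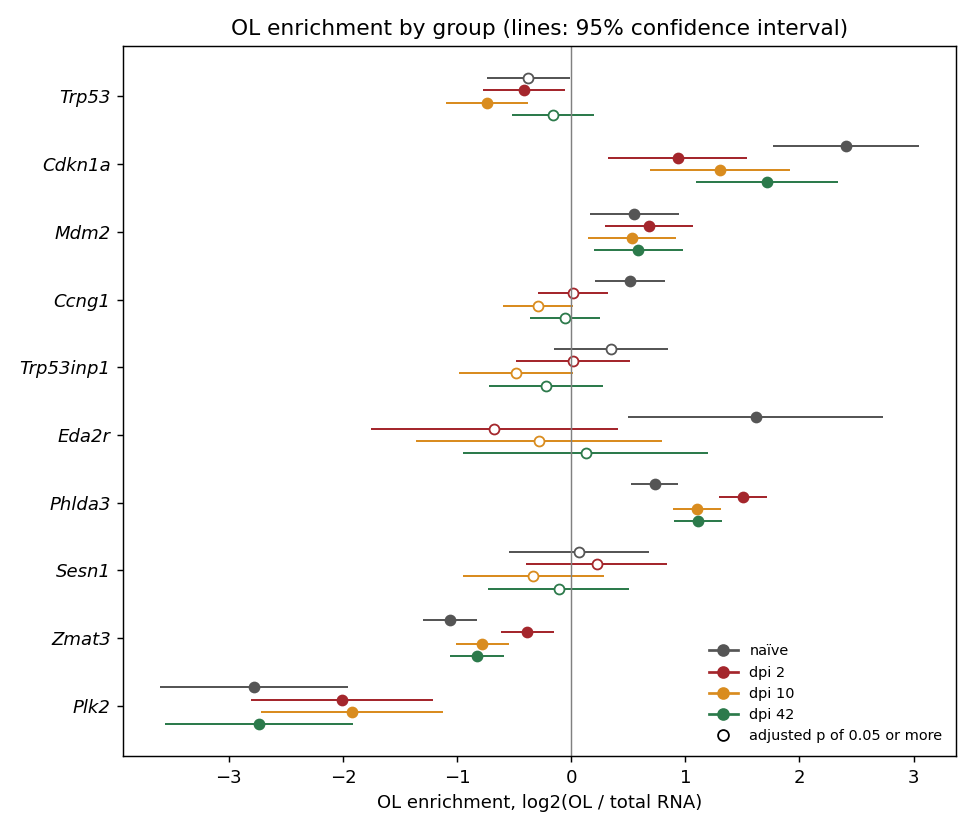
OL enrichment of each gene as log2 of OL over total RNA, in naïve cord (grey), on dpi 2 (red), dpi 10 (orange) and dpi 42 (green), with 95% confidence intervals and filled points where the adjusted p was under 0.05. Cdkn1a is at 2.41 in naïve cord and 0.93 on dpi 2, Phlda3 at 0.73 and 1.5, and Plk2 is below -1.9 in every group.

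Between time points, Phlda3 was the one gene that was called. Its OL level was lower on dpi 10 than on dpi 2 by -0.52 ± 0.10 (0.699-fold; adjusted p = 0.000417) and lower on dpi 42 than on dpi 2 by -0.46 ± 0.10 (0.729-fold; adjusted p = 0.00195), where 22.3% and 17.6% of all genes differed in either direction. Without pool 2 these were -0.39 (adjusted p = 0.00492) and -0.33 (adjusted p = 0.0194), and with the length and GC offset the first was -0.25 (adjusted p = 0.115) and the second -0.49 (adjusted p = 0.00367). No member differed in OL between dpi 42 and dpi 10 (7.18% of all genes), nor in total RNA between dpi 10 and dpi 2 (7.84%), dpi 42 and dpi 2 (10.8%) or dpi 42 and dpi 10 (0.262%) by edgeR. At an unadjusted p under 0.05 there were 2 members in the first of these comparisons, and 2, 1 and 0 in the others. The total RNA rise of Cdkn1a is thus not shown to differ between times.

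The wider pathway was described through 45 other genes in 4 lists, each tested in the same fit. Over dpi 2, 10 and 42 in that order, 9, 5 and 10 of the 45 rose in OL, where 18.4%, 9.62% and 16.2% of all genes did, and 8, 1 and 4 fell, where 20%, 8.59% and 16.9% did. In total RNA 11, 10 and 7 rose (16.4%, 13.9% and 10.4% of all genes) and 6, 3 and 2 fell (20.8%, 18.2% and 12.1%). These shares of all genes are also the background for the counts in each list, several of which lie near them. The median OL changes were 0.22, 0.11 and 0.25, beside 0 over all genes. Upstream regulators and relatives of p53 (15 genes) had 8, 14 and 12 members with no called OL change at the 3 times, while 1, 0 and 0 rose and 6, 1 and 3 fell, beside 20%, 8.59% and 16.9% of all genes down. Among them Trp53bp1, a scaffold at DNA breaks, fell by -1.15 ± 0.17 (adjusted p = 1.38e-05) on dpi 2 and by -0.92 ± 0.17 on dpi 42, and in total RNA by -1.16 ± 0.17, -0.93 ± 0.17 and -0.63 ± 0.17. Atm, the kinase that signals DNA breaks to p53, fell in OL by -1.13 ± 0.29 (adjusted p = 0.00358) on dpi 2 and by -1.38 ± 0.29 on dpi 42, and its total RNA changes of -0.16 to -0.74 were not called. The difference between OL and total RNA was not called for Atm (-0.97 ± 0.40 on dpi 2, adjusted p = 0.121). Trp53bp1 and Atm are long, with 14164 and 10338 exon bases beside a median of 4123.5. Their values with the length and GC offset are not given here.

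Targets for arrest and repair (10 genes) had 3, 2 and 3 members that rose in OL at the 3 times, beside 18.4%, 9.62% and 16.2% of all genes, and 2, 0 and 1 that fell. Gadd45a, a stress-induced arrest and repair factor, went from 29.6 ± 3.33 CPM (SD, n = 3) in naïve OL to 126 ± 21.3 on dpi 2, then 57.4 ± 9.88 on dpi 10 and 78.0 ± 22.1 on dpi 42. That is a rise of 2.10 ± 0.19 (adjusted p = 3.5e-08), 0.96 ± 0.19 and 1.40 ± 0.19, and in total RNA it rose by 1.67 ± 0.19, 1.30 ± 0.19 and 0.70 ± 0.19. The last of these calls ended without naïve total RNA replicate 2 (adjusted p = 0.0511). Btg2, an antiproliferative gene, rose by 1.53 ± 0.27, 1.62 ± 0.27 and 1.99 ± 0.27 in OL from 1.71 ± 0.448 CPM, and in total RNA by 1.12 ± 0.25, 1.48 ± 0.25 and 1.35 ± 0.25. It was depleted from naïve OL (-1.86 ± 0.27, adjusted p = 3.45e-06). Rprm, another arrest gene, rose by 2.42 ± 0.55 on dpi 2 and 2.75 ± 0.55 on dpi 42 from only 0.587 ± 0.113 CPM in naïve OL. Rrm2b, a ribonucleotide reductase subunit for repair, fell by -1.16 ± 0.19 (adjusted p = 5.15e-05) on dpi 2 and by -0.90 ± 0.19 on dpi 42. Rrm2b is also long, with 9134 exon bases, and its values with the length and GC offset are not given here.

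Among the cell death targets (10 genes), 2, 2 and 4 rose in OL on dpi 2, 10 and 42, beside the same 18.4%, 9.62% and 16.2% of all genes, and 0 fell, with medians of 1.04, 0.88 and 0.89. In total RNA 2, 3 and 2 rose and 0 fell. The OL change minus the total RNA change was called for 0 of these 10 genes at each time. Of all genes, 8.06%, 4.57% and 4.37% were called up there and 6.03%, 3.09% and 3.47% down. The median OL enrichment of the 10 was -0.65 in naïve cord and -0.70, -0.93 and -0.47 after injury. Over all genes it was -0.27, -0.19, -0.22 and -0.18. Bax, which opens the outer mitochondrial membrane, rose in OL by 1.33 ± 0.16 (adjusted p = 1.71e-06), 0.68 ± 0.16 and 0.87 ± 0.16 from 22.6 ± 4.55 CPM, and in total RNA by 1.36 ± 0.16, 1.04 ± 0.16 and 0.90 ± 0.16. With the length and GC offset its OL change was 0.57 (adjusted p = 0.0234) on dpi 2 and was no longer called on dpi 10 (0.16, adjusted p = 0.646) and dpi 42 (0.06, adjusted p = 0.9). Bbc3, which encodes the death activator PUMA, rose in OL by 1.64 ± 0.45 on dpi 10 and 1.45 ± 0.45 on dpi 42, from 1.76 ± 0.924 CPM. Fas, the death receptor, was called up in OL on dpi 2 (2.15 ± 0.73, adjusted p = 0.0241) and dpi 42 (3.22 ± 0.75) although its libraries overlapped the naïve ones, and Perp, a death effector in cell junctions, on dpi 42 (1.71 ± 0.60, adjusted p = 0.0331). Bbc3, Fas on dpi 2 and Perp lost these OL calls when single libraries were left out (adjusted p up to 0.0904, 0.172 and 0.455). The lowest changes were then 1.28 on dpi 10 and 1.05 on dpi 42 for Bbc3, and 0.60 on dpi 42 for Perp. Without naïve OL replicate 3 the Fas changes were 3.16 and 4.21. Over every single library left out, the lowest Fas changes were 1.34 on dpi 2 and 2.45 on dpi 42.

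Metabolism and stress targets (10 genes) gave 3, 1 and 3 up in OL (18.4%, 9.62% and 16.2% of all genes) and 0 down, and in total RNA 4, 5 and 3 up and 2, 1 and 0 down. Steap3, a metalloreductase in iron uptake, had the largest OL change of the named pathway genes on dpi 2, from 3.61 ± 4.29 CPM in naïve OL to 147 ± 47.5, with 25, 29 and 224 counts in the naïve OL libraries. This was a rise of 5.33 ± 0.52 (adjusted p = 7.59e-08), with 3.05 ± 0.48 and 2.63 ± 0.47 later. In total RNA Steap3 rose by 2.40 ± 0.45, 2.32 ± 0.45 and 1.55 ± 0.44, the last not called without naïve total RNA replicate 2 or 3 (adjusted p up to 0.0575). The difference between OL and total RNA was called on dpi 2 (2.93 ± 0.63, adjusted p = 0.00325). The 224 counts came from replicate 3, which had the highest Schwann cell and astrocyte sums of the naïve OL libraries, and without it the OL changes were 6.95, 4.73 and 4.25. Rps27l, a ribosomal protein paralogue induced by p53, rose in OL by 1.51 ± 0.23 on dpi 2 and 0.79 ± 0.23 on dpi 42, and in total RNA by 1.52 ± 0.23 on dpi 2 and 0.74 ± 0.23 on dpi 10. Its dpi 42 OL call ended without naïve OL replicate 2 or dpi 42 OL replicate 1 or 2 (adjusted p up to 0.0835), and without both conflicting libraries (adjusted p = 0.0621). Its dpi 10 total RNA call ended without naïve replicate 3 or dpi 10 replicate 2 or 3 (adjusted p up to 0.0876). Under the offset for length and GC these OL changes were 0.48 (adjusted p = 0.0679) and -0.03 (adjusted p = 0.993).

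Among 13677 genes with a mean of at least 1 CPM, the 3 whose mean log2 CPM over the 8 groups followed Cdkn1a most closely were Mesd (r = 0.99), Lyar (r = 0.99) and Dtx2 (r = 0.98). All genes share the same libraries, and the OL means lie apart from the total RNA means, so these values only describe the groups. Of the members, Mdm2 (r = 0.87) and Phlda3 (r = 0.82) were nearest to Cdkn1a over the same points, and Zmat3 (r = -0.94) and Plk2 (r = -0.92) ran opposite to it.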

How the data were processed

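RNA was sequenced from 12 tissue pools of 2 mice, each giving a total RNA and an OL library. Per the labels and the study's methods, the authors aligned reads to mm10 (GRCm38.p6) with STAR after FastQC 0.10.1 and deposited raw counts per gene, made with HTSeq 0.10.0. The annotation release and the strand setting are not given in the sources used here. Genes whose counts over the 24 libraries summed to 10 or more (17167 of 21965) were fitted in 1 model of the 8 groups with edgeR 4.0.16 (R 4.3.3) after TMM scaling. The quasi-likelihood test was used, with Benjamini-Hochberg adjustment over all tested genes and calls at an adjusted p under 0.05. SE is the log2 fold change divided by the square root of the test statistic. Length and GC content came from GENCODE M21. CPM values are on the TMM scale. Samples were grouped by their labels, and for the 2 dpi 42 libraries whose title and description disagree the description was used, which matches the column names.

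The 10 genes and all lists were chosen with earlier results of these data known. The named pathway genes were those called in OL with a change past 1 (log2) at any time, at most 4 per list. Each replicate is a separate pool of tissue, and replicate libraries differed by more than counting noise (median chi-square per gene 2.51 to 21.1). OL and total RNA libraries of a pool share tissue by design. Their deviations from the group means correlated at 0.11 to 0.22 in naïve cord, 0.15 to 0.17 on dpi 2, 0.044 to 0.14 on dpi 10 and -0.053 to 0.0066 on dpi 42, over 3 pools each. OL and total RNA libraries of different pools correlated at -0.18 to 0.093 in naïve cord and -0.13 to -0.031 on dpi 2. They correlated at -0.090 to 0.033 on dpi 10 and -0.035 to 0.032 on dpi 42, over 6 pairs each. The ranges for shared and different pools overlapped on dpi 42 only. The pool was also fitted as a block for OL enrichment and differential OL enrichment. Alternatives were DESeq2 1.42.0 size factors, the DESeq2 Wald test, library sizes alone, 2 other count filters, only the groups compared, a length and GC offset per library, and leaving out libraries. The procedure was tested on simulated data, with no outcome reported here. Some items, marker genes among them, are not reported here.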

Additional observations from a re-analysis of the deposited data

Results flagged for a closer look

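On dpi 2 the change after injury differed between OL and total RNA for 4 genes, by the interaction term of edgeR's quasi-likelihood fit: Cdkn1a by -1.47 and Eda2r by -2.29, lower in OL, and Phlda3 by 0.77 and Zmat3 by 0.68, higher in OL (log2). On dpi 10 the same term was called for Ccng1, at -0.80. Each of these calls was lost under some alternative: Phlda3 with the length and GC offset (adjusted p = 0.234), Cdkn1a and Eda2r with only the groups compared (adjusted p = 0.103 and 0.0846), and Zmat3 and Ccng1 without single libraries (adjusted p up to 0.105 and 0.0557).

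Counts of 4 Y-linked genes, which no comparison used, reached 2604 in the total RNA library and 2414 in the OL library of dpi 2 pool 2, against 0 to 13 in the other 22 libraries, although all mice were labelled female. Cdkn1a and Phlda3 had their highest dpi 2 OL values in that pool (272 and 265 CPM).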

How the results depend on the processing

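Each result was recomputed under the alternatives below, and of 204 single values 204 kept their side of the threshold, with the same sign where called, with edgeR's own expression filter, 203 with no filter on counts, 200 with DESeq2 size factors, 197 with the DESeq2 Wald test, 177 with library sizes alone, 174 with the length and GC offset, 176 with only the groups compared (15 calls lost, 13 gained), 199 without dpi 2 pool 2 and 192 without the conflicting libraries. Among these, 6, 6, 14, 17, 5, 5 and 5 values that were not called changed sign under the last 7 settings. With single libraries left out, 1294 of 1404 values kept their side, 88 lost a call, 21 gained one and 1 was reversed. Eda2r rested on only 20 to 157 counts per library, and Plk2 in OL on only 30 to 178, which limits their precision. The cause of the shifts below was not tested. Counts of p53 members called moved as follows, in a list that is not complete. With DESeq2 size factors, and by the DESeq2 Wald test, 2 were up in OL on dpi 10 and 5 were OL depleted on dpi 10. With library sizes alone, which moved the median OL enrichment of all genes by -0.51, -0.57, -0.57 and -0.50 and their median total RNA change by 0.20, 0.16 and 0.11, 4 were up in OL on dpi 2, 2 up and 0 down on dpi 10 and 0 down on dpi 42, 1 was up in differential OL enrichment on dpi 42, 2, 1, 2 and 2 were OL enriched in naïve cord and on dpi 2, 10 and 42, and 5, 6 and 5 were OL depleted on dpi 2, 10 and 42. On that scale Ccng1 enrichment was -0.0011 in naïve cord and -0.56 on dpi 2, and Mdm2 enrichment was -0.0447 on dpi 10. Under the offset for length and GC 0 were up and 0 down in OL on dpi 10, 1 was up on dpi 42 and 1 was up in differential OL enrichment on dpi 2. Signs turned there for Zmat3 in OL (0.29 on dpi 2, 0.17 on dpi 42), Phlda3 in OL (-0.21 on dpi 10, -0.45 on dpi 42) and Rps27l in OL on dpi 42 (-0.0327). With only the groups compared in the fit, 0 were down in OL on dpi 10 and dpi 42, differential OL enrichment had 0 down on dpi 2 and 1 up and 2 down on dpi 10, and 1 was OL enriched on dpi 2. Without both libraries of dpi 2 pool 2, 1 (Cdkn1a, -0.54) was down in OL on dpi 2, and differential OL enrichment had 1 down on dpi 2 and 2 on dpi 10. Without the conflicting libraries of dpi 42, 2 were up in OL on dpi 10 and 1 was down in differential OL enrichment on dpi 2. Without these libraries Mdm2 was also no longer called OL enriched on dpi 42, and Trp53 was called OL depleted there.

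The replicate block left 0 p53 members up and 0 down in OL on dpi 10, where samples of different times share only a replicate number (Phlda3 0.31, adjusted p = 0.102, and Zmat3 -0.39, adjusted p = 0.0862), and with the tissue pool as block 2 members were down in differential OL enrichment on dpi 10 and 1 on dpi 42. Of 158 values fitted with a block, 139 kept their side of the threshold, 4 of them uncalled and with another sign, 7 lost a call and 12 gained one.

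With single libraries left out, numbers of p53 members called ran, for OL up, from 2 to 3 on dpi 2, 0 to 1 on dpi 10 and 1 to 2 on dpi 42, and for OL down from 0 to 1, 0 to 1 and 1 to 2. Total RNA up ran from 3 to 4, 2 to 3 and 1 to 4. Differential OL enrichment up ran from 1 to 2 on dpi 2, and down from 0 to 3, 0 to 2 and 0 to 1. OL enriched ran from 3 to 6 in naïve cord and 2 to 3 on dpi 2 and dpi 42, and OL depleted from 2 to 3 on dpi 2. Cdkn1a in OL on dpi 2 ran from -0.59 (adjusted p = 0.041, without replicate 2) to 0.39.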
